A study of Mus musculus with 8 samples.

Results

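The collagen and laminin gene families comprise the genes named Col, number, a, number and the genes whose names begin Lama, Lamb or Lamc followed by a number. They were taken by name from tables keyed by NCBI gene number, and a gene was kept if its value was above 0 in at least 4 of 8 libraries. The rule found 55 genes among the 38920 rows of each table, and all 55 were above 0 in all 8 libraries. They fall into 11 fibrillar collagens, 6 type IV collagens, 11 laminin chains and 27 other collagens.

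The libraries hold total RNA of gastric epithelial cells sorted from the stomach of C57BL/6 mice. Of these, 4 came from mice on a high fat diet (HFD 22, 23, 26 and 27) and 4 from the study's control mice, labelled ND (ND 15-17-18, 16, 19 and 20); library values below are given in that order. The labels give no age, sex, length of feeding, sorting marker or batch, and no genetic change in either group. They do not say whether a library is 1 mouse, and the title of ND 15-17-18 lists 3 numbers and could stand for a pool, so p-values measure the spread between these libraries.

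Collagens are trimers wound from alpha chains, and a cell needs every chain of a trimer to secrete it. Fibrillar collagens, such as types I, III and V, are made mostly by fibroblasts and form the cables of connective tissue. Type IV collagen and the laminins form the sheets of the basement membrane on which an epithelium stands, and a laminin is a cross of 1 alpha, 1 beta and 1 gamma chain. Epithelial cells make many laminin chains themselves, while type IV collagen comes from epithelial, endothelial and mesenchymal cells.

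Levels are log2(value + 1) of the linear values after each library was scaled by its median ratio to the row means, and a difference is HFD minus ND on that scale. The scaling matters, because in the values as deposited the median row is 0.90 higher in HFD and after scaling 0.12. The scaling factors ran from 0.176 in ND 15-17-18, where the 20 largest rows held 85.7% of the total, to 1.37 in ND 16, where they held 27.8%. The 55 genes together took between 0.0243% and 0.148% of a library's linear total.

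The labelled cell type was checked against marker genes. All 15 gastric epithelial markers were above 0 in every library. The log2 of their summed scaled values was 21.85 to 21.98 in HFD and 21.3 to 21.8 in ND, without overlap. Other marker and class sums below are log2 values of the same kind. Pgc, at 21.20 to 21.58 in HFD and 20.22 to 21.33 in ND, was the largest of these markers in every library. It therefore weighs most in this sum. Of the 15 markers 6 had a difference above 0, where 59.9% of all rows did. Markers of other cells were present at lower sums. The 12 fibroblast markers summed to 11.2 to 11.8 in HFD and 10.9 to 11.8 in ND, with Lum, Mfap5 and Tcf21 at 0 in at least 1 library. The 12 endothelial markers summed to 11.1 to 11.5 in HFD and 10.2 to 11.8 in ND, with Cldn5 at 0 in at least 1 library. The 9 smooth muscle markers summed to 11.8 to 12.5 in HFD and 9.43 to 11.2 in ND, so these groups did not overlap, and only Lmod1 was at 0 in a library.

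No collagen or laminin gene passed the test between the diets (limma on all 27401 tested rows, Benjamini-Hochberg adjusted p under 0.05), against 3 of all rows, or 0.0109%. At an unadjusted p under 0.05, 2 members were higher in HFD (Col14a1 and Lama4) and 1 was lower (Col4a3), while among all rows 6.43% were higher and 4.09% lower. Complete separation of the 4 HFD from the 4 ND libraries occurred in 0 members upward, where all rows gave 4.72%, and in 1 member downward, Col4a3, where all rows gave 3.12%. As shares of 55 genes, these counts lie under the background. In bulk samples such as these, fewer cells of a type and less RNA per cell cannot be told apart.

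The differences leaned upward, with 37 of 55 members (67.3%) above 0 compared with 59.9% of all rows. The count of members moved when single libraries were left out. Without ND 16 the count was 28 of 55, and without HFD 23 it was 29. The median difference was 0.11 for fibrillar collagens, 0.20 for type IV collagens, 0.23 for laminin chains and 0.32 for other collagens, beside 0.12 for all rows. Leaving out ND 16 brought these to -0.20, -0.04, 0.11 and 0.07. The fibrillar median also changed sign without HFD 22 (-0.03) and without HFD 23 (-0.08). Without HFD 26 it was 0.44, and the other collagens then had 0.53. Libraries were scaled anew in each of these fits. The share above 0 and the median of all rows in them are not given here. A move of the members therefore cannot be told apart from a shift of all rows. On the deposited scale 54 of 55 members were higher in HFD, where 89.9% of all rows were, with class medians of 0.97, 1.06, 1.08 and 1.17 beside 0.90 for all rows. No member passed the test there either, while 16 of all rows did (0.0584%), 8 members were higher at an unadjusted p under 0.05 (all rows 9.25%) and 6 were separated upward (all rows 7.82%). Of the 18 members that were lower in HFD after scaling, 17 were higher as deposited.

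**Figure D1:**
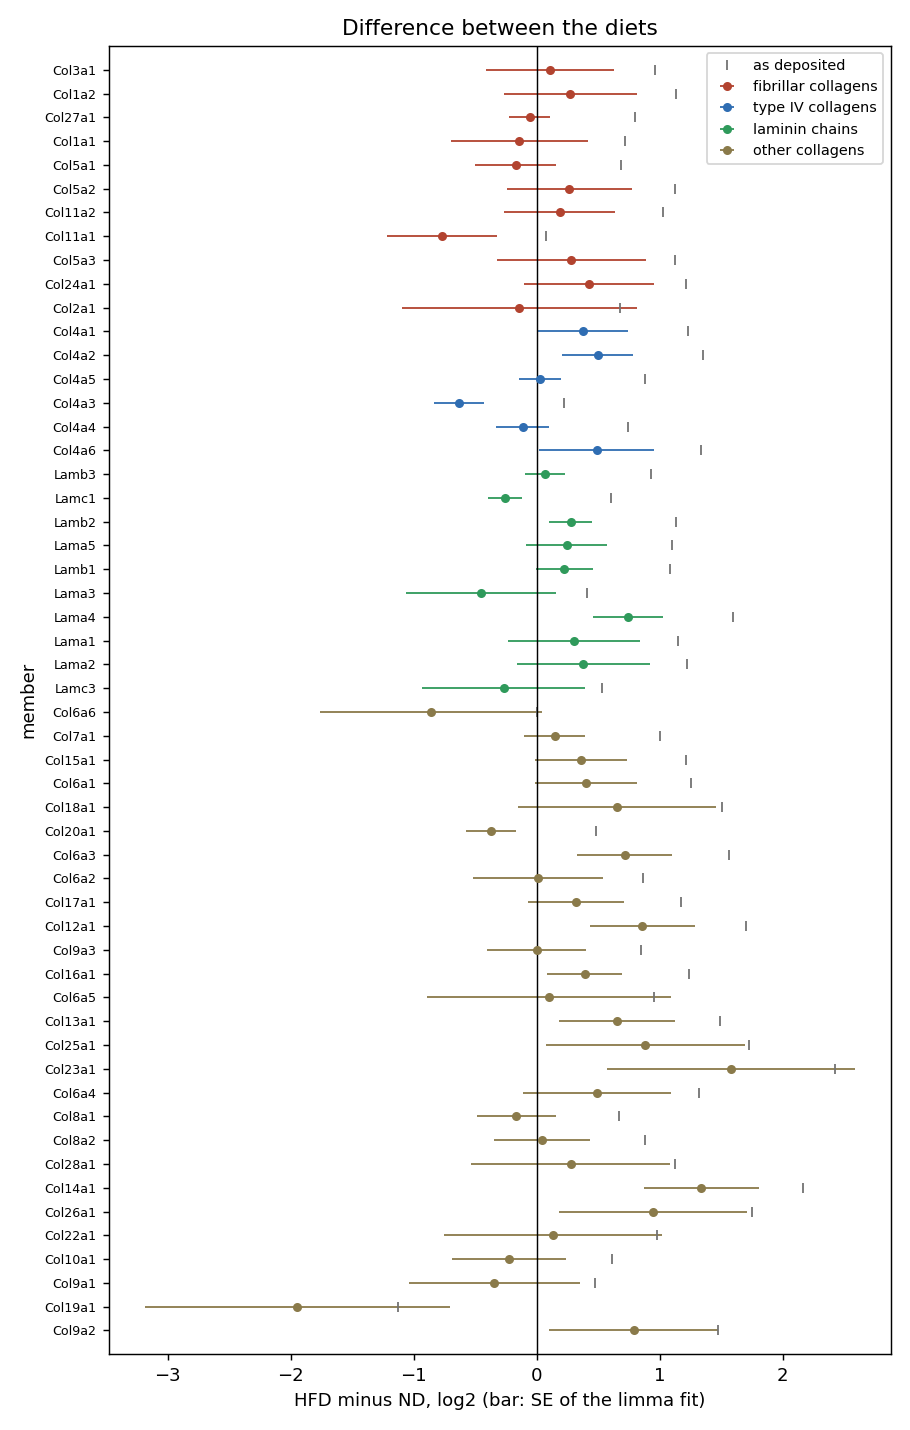
Difference between the diets for 54 of the 55 genes in log2 units, HFD minus ND, with the SE of the limma fit as a bar and the difference in the deposited values as a grey tick, coloured by class. After scaling the genes lie on both sides of 0, more of them right than left, while nearly every tick lies right of 0.

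Levels of different genes were compared per kb of merged exon. This assumes that the deposited values were not already divided by length, which was not tested. On that log2 scale the laminin chains Lamb3 and Lamb2 led. Lamb3, the beta chain of the laminin that anchors hemidesmosomes, came first with 9.31 ± 0.24 (SD over 8 libraries). Lamb2, the beta chain shared by several basement membrane laminins, followed with 8.63 ± 0.29, a step that exceeds both SDs. Every later step down the order was smaller than the larger SD of the pair it separates.

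Lamc1, the gamma chain of most laminins, stood at 8.34 ± 0.23 per kb. Above it lay Col6a6, a beaded filament chain, with 8.60 ± 1.39, the widest spread of any gene in the upper part of the order. The leading fibrillar genes, Col3a1 (8.14 ± 0.78) and Col1a2 (7.74 ± 0.83), and the leading type IV genes, Col4a1 (8.09 ± 0.60) and Col4a2 (7.41 ± 0.52), came next. The lowest were Col9a2, Lamc3, Col24a1 and Col2a1, from 1.88 down to 1.502. Col2a1 encodes the main collagen of cartilage.

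**Figure D2:**
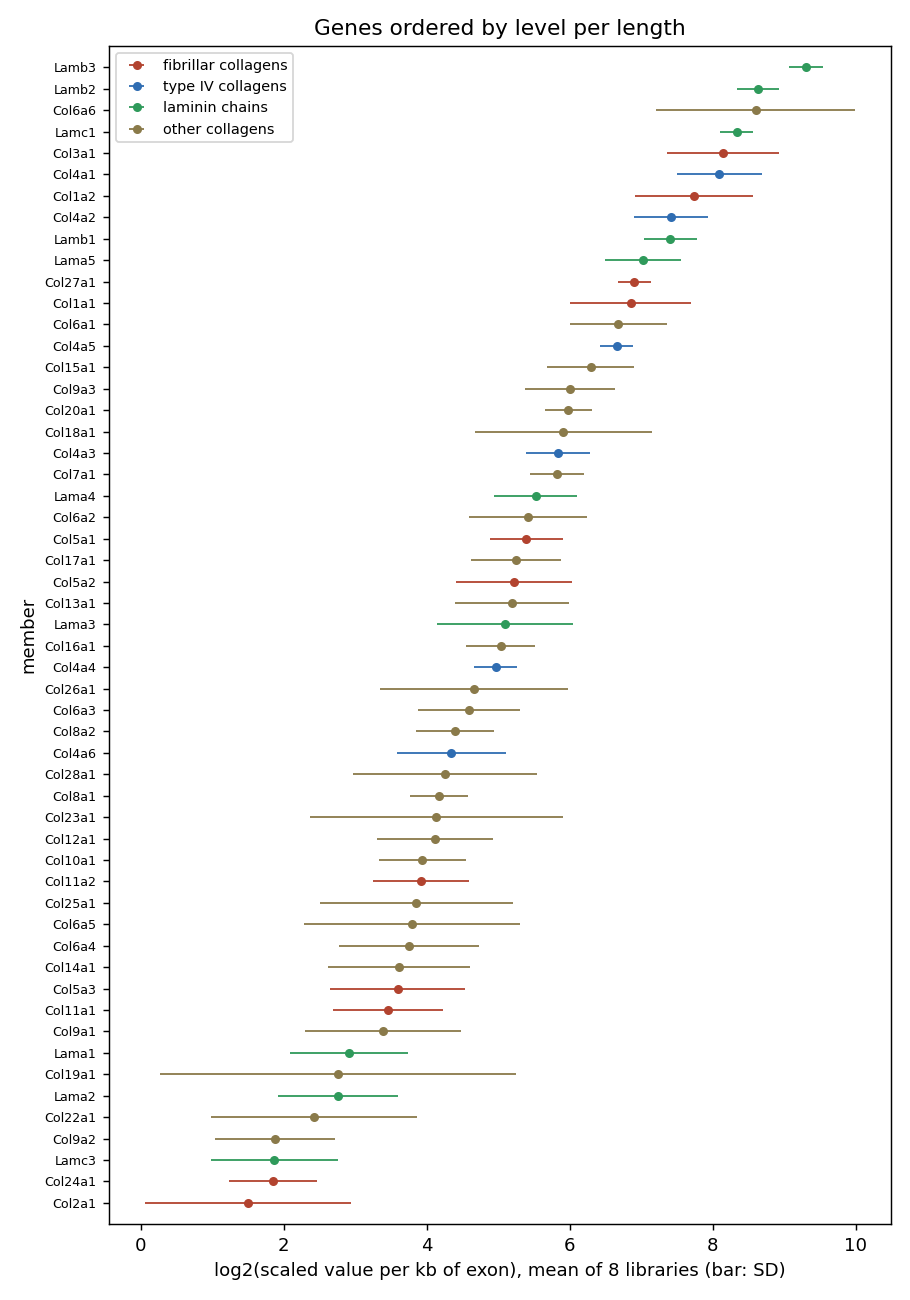
For 54 of the 55 genes, the log2 of the scaled value per kb of merged exon in order of level, as the mean of 8 libraries with the SD as a bar, coloured by class. Lamb3 is highest at 9.31 and Col2a1 lowest at 1.502.

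Of the 4 classes, the laminin chains had the narrowest range in sum. The log2 of their summed values ran from 13.6 in HFD 26 to 14.1 in HFD 23, a range of 0.48. The fibrillar sum ranged over 1.89 and the type IV sum over 1.20. Lamb3 made up 24.4% of the laminin sum on average, Lamc1 18.5%, Lamb2 17.04% and Lama5 11.5%. No laminin chain passed the test between the diets.

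Lamb3 (chromosome 1, 193294353 to 193343878, GRCm38.p6) was at 11.63, 11.77, 11.70 and 11.69 in HFD and at 11.67, 12.05, 11.18 and 11.62 in ND. The 4 HFD libraries were close together, with a mean of 11.70 ± 0.06 (SD), and the ND libraries, with a mean of 11.63 ± 0.36, lay on both sides of them. Lamb2 (chromosome 9, 108479847 to 108490530) was at 11.28, 11.35, 11.25 and 11.18 in HFD and at 10.77, 10.56, 11.29 and 11.32 in ND. Here ND 15-17-18 and ND 16 lay below the rest and ND 19 and 20 among the HFD libraries, giving a difference of 0.28 ± 0.17 (SE, n = 4 each, limma adjusted p = 0.60).

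The 250 bases upstream of the RefSeq transcript start of both genes are shown because these chains are the most abundant per length. They were searched on both strands for GGGCGG (a GC box), CCAAT and TATAAA, motifs that do not overlap one another here, and no match was found, so no capitals are used. Both are read from RefSeq GRCm38.p6, at chr1:193301744-193301993 and chr9:108479612-108479861, both on the plus strand. Their GC contents are 58.8% and 43.6%. Each window stands before 1 annotated transcript start. The Lamb3 window lies wholly inside the gene's outer limits given above, and the last bases of the Lamb2 window also lie inside those of its gene.
Lamb3: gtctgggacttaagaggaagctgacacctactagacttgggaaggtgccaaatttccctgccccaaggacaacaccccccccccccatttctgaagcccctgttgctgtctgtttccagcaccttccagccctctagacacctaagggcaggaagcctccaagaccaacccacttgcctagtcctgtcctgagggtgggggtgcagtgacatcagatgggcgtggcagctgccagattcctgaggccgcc
Lamb2: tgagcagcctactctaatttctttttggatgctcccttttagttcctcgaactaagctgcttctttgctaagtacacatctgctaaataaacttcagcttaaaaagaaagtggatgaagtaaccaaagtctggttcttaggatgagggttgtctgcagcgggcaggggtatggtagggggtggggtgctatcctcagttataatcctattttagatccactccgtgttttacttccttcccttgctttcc

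Lama3 encodes the alpha chain of the hemidesmosome laminin, to which Lamb3 gives the beta chain. Lama3 was at 8.27, 8.23, 8.26 and 8.42 in HFD and at 10.40, 8.43, 9.13 and 7.04 in ND. The HFD libraries were close together (8.30 ± 0.09 SD), while the ND libraries ran from the lowest to the highest of the 8 (8.75 ± 1.40). Per kb, Lama3 was at 5.09 ± 0.95 and lay under Lamb3 in 8 of 8 libraries.

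For Lama3 and Lamb3 over the 8 libraries, Pearson's r was -0.19 (exact permutation p = 0.57, adjusted 0.70) and Spearman's rho -0.10 (p = 0.84, adjusted 0.88). Without ND 15-17-18 and ND 20, the farthest from the median of Lama3, r was -0.76. These p-values were adjusted over 22 tests on 11 chain pairs, and all libraries enter through the same scaling. Lama3 overlaps a pair of noncoding genes, and the sources used here do not say whether the counting used strand.

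Lama5, Lamb1 or Lamb2, and Lamc1 build the laminins of most mature epithelial basement membranes. Lama5 was at 10.44, 11.79, 10.19 and 10.22 in HFD and at 10.32, 10.23, 10.46 and 10.66 in ND. HFD 23 stood above all 7 others, and without it the difference changed from 0.24 ± 0.33 (SE, limma adjusted p = 0.80) to -0.13. Lamc1 was at 11.12, 11.24, 11.003 and 11.20 in HFD and at 11.72, 11.47, 11.26 and 11.12 in ND. Its groups overlapped, since ND 20 fell among the HFD libraries, and the difference was -0.26 ± 0.14 (SE, limma adjusted p = 0.54), or 0.60 as deposited.

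Lamb1 was at 10.02, 10.19, 10.13 and 9.91 in HFD and at 9.36, 9.52, 10.52 and 9.96 in ND. ND 15-17-18 and ND 16 were lowest, as for Lamb2, and ND 19 was highest, with a difference of 0.23 ± 0.23 (SE, limma adjusted p = 0.73). The largest negative correlation among the chain pairs was between Lamb1 and Lamc1, with r = -0.72 (exact permutation p = 0.0562, adjusted 0.10) and rho = -0.40 (p = 0.33, adjusted 0.45). Without ND 15-17-18 and ND 19, r was -0.80.

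Lama4, the alpha chain of blood vessel and muscle basement membranes, had the second smallest p of the higher members. It was at 9.005, 8.60, 7.82 and 8.56 in HFD and at 7.76, 7.47, 8.33 and 7.47 in ND. ND 19 lay above HFD 26, so the groups overlapped, and the difference was 0.74 ± 0.28 (SE, n = 4 each, limma unadjusted p = 0.0269, adjusted p = 0.41). Of the marker sums given above, the endothelial ones overlapped between the diets and the smooth muscle ones did not. Of the 12 endothelial markers 11 had a difference above 0, as did all 9 smooth muscle markers, where 59.9% of all rows did. The exception was Emcn (-1.03), at 10.27 in ND 15-17-18 and 4.44 to 6.58 in the other ND libraries. The part of these cells in the Lama4 values was not tested.

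Type IV collagen is the network of the basement membrane. Col4a1 and Col4a2 form its common trimer, and Col4a3, Col4a4, Col4a5 and Col4a6 form specialised ones. Col4a1 held 39.6% of the summed type IV values, Col4a2 24.2%, Col4a5 14.5% and Col4a3 11.6%. No type IV gene passed the test.

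Col4a3 (chromosome 1, 82586921 to 82722059) had the smallest p of all 55 genes. It was at 8.48, 8.36, 8.66 and 8.97 in HFD and at 9.75, 9.02, 8.99 and 9.23 in ND. Every HFD library was below every ND library, although HFD 27 and ND 19 lay close together. The means were 8.62 ± 0.26 and 9.25 ± 0.35 (SD), the difference was -0.63 ± 0.20 (SE, n = 4 each, limma unadjusted p = 0.0121, adjusted p = 0.33), and over the 8 fits that each left out 1 library it ran from -0.75 to -0.49. As deposited, the difference was 0.23. Relative to the median row it was lower in HFD on both scales.

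Col4a4, its partner chain, starts beside it and is read in the other direction. Col4a4 was at 8.14, 7.999, 8.26 and 8.60 in HFD and at 8.15, 8.08, 8.88 and 8.34 in ND, with no separation of the groups and a difference of -0.11 ± 0.22 (SE, limma adjusted p = 0.86). The log2 ratio of Col4a3 to Col4a4 was therefore steady in HFD (0.37 ± 0.02 SD) and ran from 0.11 in ND 19 to 1.60 in ND 15-17-18 in ND (0.89 ± 0.61). The ratio did not separate the groups (exact two-sided permutation p = 0.14, adjusted over 11 ratios 0.31). The annotated genes overlap, and it is not known whether the counting used strand.

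Col4a1 was at 10.97, 11.58, 10.44 and 11.03 in HFD and at 10.75, 9.59, 11.22 and 10.97 in ND. Col4a2 was at 10.35, 10.71, 10.004 and 10.35 in HFD and at 9.56, 9.18, 10.61 and 10.09 in ND. In both genes HFD 23 was highest and ND 16 lowest. The differences were 0.37 ± 0.37 (SE, limma adjusted p = 0.72) for Col4a1 and 0.50 ± 0.29 (SE, limma adjusted p = 0.57) for Col4a2, and without ND 16 they were 0.02 and 0.27. Their levels followed each other over the 8 libraries, with r = 0.90 (exact permutation p = 0.00471, adjusted 0.0115) and rho = 0.98 (exact permutation p = 0.000397, adjusted 0.00546). Without HFD 23 and ND 16, r was 0.69.

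The genes are transcribed away from each other from a shared start, which is shown because the pair moved together. The 30 bases are chr8:11312801-11312830 on the plus strand of GRCm38.p6, from RefSeq. The capitals mark the 22 bases that lie downstream of both annotated starts, that of Col4a2 at 11312805 on the plus strand and that of Col4a1 at 11312826 on the minus strand. Counting without strand could assign reads from these bases to either gene.
Col4a1 and Col4a2 shared start: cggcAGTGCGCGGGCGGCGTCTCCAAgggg

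Col4a5 was the least variable member, with a range over the 8 libraries of 0.61. It was at 9.49, 9.46, 9.07 and 9.49 in HFD and at 9.28, 8.99, 9.56 and 9.60 in ND, with HFD 26 and ND 16 lowest. Its neighbour on chromosome X, Col4a6, did not follow it closely (r = 0.66, exact permutation p = 0.11, adjusted 0.18, and rho = 0.45, p = 0.27, adjusted 0.39), and without HFD 26 and ND 16 r was -0.24. Of the 55 genes 7 had a range of at most 1, and 12 had a range above 3. The median range was 2.06 for the members and 1.90 for all tested rows, whose median level of 6.32 was below the members' 7.74. Tested rows with a mean level of 8 to 12 had a median range of 0.76. It was 1.46 for type IV genes (median level 9.15) and 1.54 for laminin chains (median level 9.95).

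Col17a1, a transmembrane collagen of hemidesmosomes, and Col7a1, the anchoring fibril below them, complete the attachment of stratified epithelia. Col17a1 was at 8.37, 7.02, 8.64 and 7.58 in HFD and at 7.65, 6.86, 8.17 and 7.64 in ND, highest in HFD 26 (difference 0.32 ± 0.39 SE, limma adjusted p = 0.77). Forestomach squamous markers, which include keratins of stratified epithelium, were also highest in HFD 26, where the log2 of their summed values was 12.8. They were at 11.6 to 12.8 in HFD and 8.05 to 11.7 in ND, with Sprr3, Lor and Krtdap at 0 in at least 1 library of 12 markers listed, and their part in the Col17a1 values was not tested. Col7a1 was at 9.33, 9.21, 8.70 and 9.18 in HFD and at 9.53, 8.57, 9.22 and 8.51 in ND. Its groups overlapped fully (0.15 ± 0.25 SE, limma adjusted p = 0.84).

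The fibrillar collagens were led by Col3a1 with 29.7% of the class sum, Col1a2 with 21.7% and Col27a1 with 18.1%. Col3a1 (chromosome 1, 45311538 to 45349706), the single chain of type III collagen, was at 11.07, 11.26, 9.69 and 10.68 in HFD and at 10.98, 9.28, 11.55 and 10.46 in ND. ND 19 was highest, ND 16 lowest and HFD 26 next to lowest. The means of 10.67 ± 0.70 and 10.57 ± 0.97 (SD) differed by 0.11 ± 0.52 (SE, limma adjusted p = 0.95), and without ND 16 by -0.33.

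Col1a1 and Col1a2 encode the chains of type I collagen, which holds more Col1a1 than Col1a2 chains. Col1a2 (chromosome 6, 4505618 to 4541543) was at 10.78, 10.78, 9.57 and 10.03 in HFD and at 10.25, 8.71, 11.33 and 9.79 in ND. Col1a1 (chromosome 11, 94936224 to 94953042) was at 9.72, 9.92, 8.58 and 9.19 in HFD and at 10.03, 7.97, 10.58 and 9.39 in ND. Both repeated the order of Col3a1 at its ends, with ND 19 highest and ND 16 lowest. The differences were 0.27 ± 0.54 (SE, limma adjusted p = 0.87) for Col1a2 and -0.14 ± 0.56 (SE, limma adjusted p = 0.94) for Col1a1.

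Col1a1 followed Col3a1 over the 8 libraries with r = 0.97 (exact permutation p = 0.000496, adjusted 0.00546) and Col1a2 with r = 0.94 (exact permutation p = 0.00104, adjusted 0.00764), and rho was 0.90 for both pairs (exact permutation p = 0.00456, adjusted 0.0115). Without ND 16 and ND 19, r was 0.93 and 0.79. ND 16 also had the lowest fibroblast marker sum of the 8 libraries, 10.9, and the lowest endothelial and smooth muscle sums, 10.2 and 9.43. The 7 pericyte markers, of which Kcnj8 and Higd1b were at 0 in at least 1 library, summed to 9.32 to 10.1 in HFD and 8.63 to 9.55 in ND, lowest again in ND 16. The part of these cells in the collagen levels was not tested.

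The 250 bases upstream of the RefSeq transcript starts of Col3a1 and Col1a2 are shown because these abundant genes both followed Col1a1. They are chr1:45311288-45311537 and chr6:4505368-4505617 of GRCm38.p6, both on the plus strand. Capitals mark matches to the motifs searched on both strands, a TATAAA in Col3a1 and 2 copies of GGGCGG with 1 CCAAT in Col1a2. The Col3a1 window has a GC content of 35.2% and no CG pair, and the Col1a2 window 62.0% and 11 CG pairs.
Col3a1: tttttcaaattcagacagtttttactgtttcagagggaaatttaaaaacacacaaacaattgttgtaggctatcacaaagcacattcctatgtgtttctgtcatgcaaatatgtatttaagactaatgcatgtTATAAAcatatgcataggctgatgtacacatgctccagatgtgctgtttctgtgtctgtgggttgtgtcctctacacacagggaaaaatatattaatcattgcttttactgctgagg
Col1a2: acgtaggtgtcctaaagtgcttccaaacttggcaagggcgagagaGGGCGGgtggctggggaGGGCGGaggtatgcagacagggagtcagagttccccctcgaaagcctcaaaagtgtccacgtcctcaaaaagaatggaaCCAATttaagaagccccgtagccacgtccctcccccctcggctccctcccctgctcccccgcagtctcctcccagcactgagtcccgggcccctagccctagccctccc

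RefSeq start windows were found for 40 of the 55 genes, with 44 windows in all. GGGCGG was present in 54.5% of them, CCAAT in 31.8% and TATAAA in 11.4%. Among all 32851 windows of the same length the shares were 32.7%, 33.8% and 12.4%. The median GC content was 59.0% in the members' windows and 52.4% in all windows, with medians of 8.5 and 6 CG pairs. The part of GC content in the GGGCGG share was not tested. A match is a description of the letters and does not identify a bound site.

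Col27a1, a fibrillar collagen of cartilage and other tissues, behaved unlike the other abundant fibrillar genes. It was at 9.95, 9.68, 9.72 and 9.88 in HFD and at 10.19, 9.43, 9.85 and 9.97 in ND, a range of 0.76 where Col3a1 ranged over 2.26. Its difference was -0.06 ± 0.17 (SE, limma adjusted p = 0.91). As a share of the fibrillar sum it ran from 9.97% to 27.5%. Col11a1, a minor chain of thin fibrils, was at 6.47, 5.93, 5.46 and 6.25 in HFD and at 7.92, 6.02, 7.05 and 6.22 in ND. ND 15-17-18 was highest, and its difference was -0.77 ± 0.45 (SE, limma adjusted p = 0.57), against 0.08 as deposited. The groups also overlapped in the other 6 fibrillar genes.

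The balance of basement membrane to fibrillar transcripts was compared inside each library, where the scaling cancels. The log2 ratio of the summed type IV and laminin values to the summed fibrillar values was 1.35, 1.65, 2.28 and 1.81 in HFD and 1.46, 2.72, 0.998 and 1.87 in ND. It was highest in ND 16 and lowest in ND 19, both controls. The means were 1.77 ± 0.39 in HFD and 1.76 ± 0.73 in ND (SD, n = 4 each), which differ by 0.01, less than the spread within either diet. Leaving out single libraries moved that difference between -0.24 (without ND 19) and 0.33 (without ND 16).

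**Figure D3:**
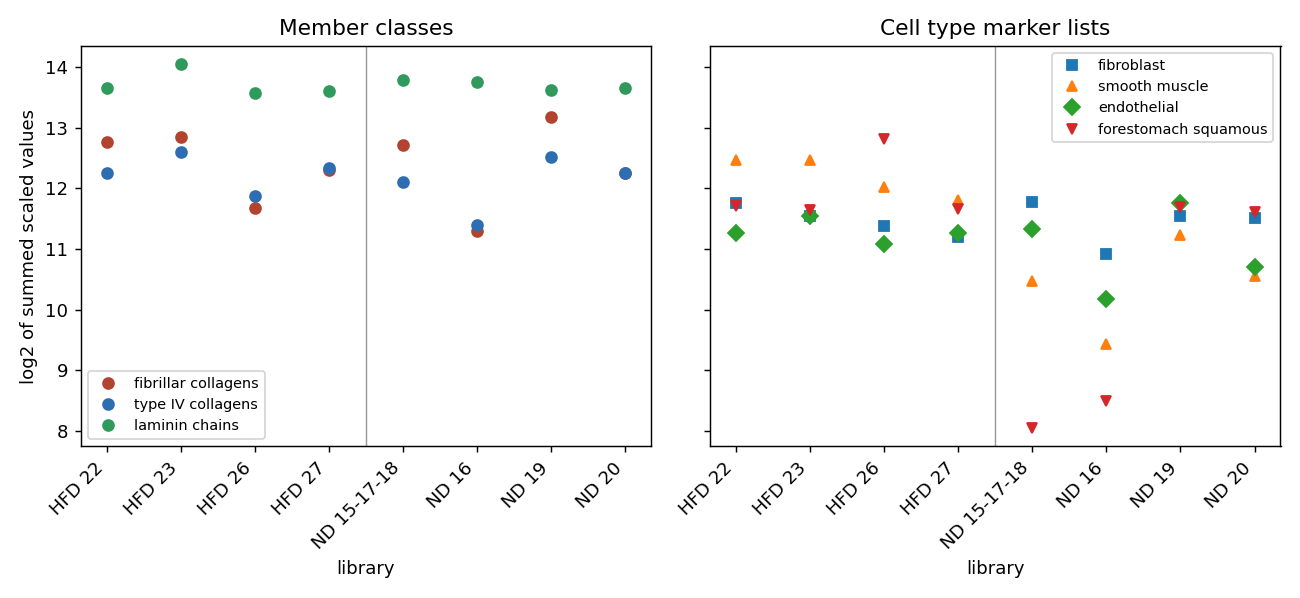
Log2 of summed scaled values in each library (x axis), for 3 classes of matrix genes on the left and 4 lists of cell type markers on the right, with HFD libraries left of the vertical line and ND libraries right of it. The laminin sum stays between 13.6 and 14.1, while the fibrillar sum falls to 11.3 in ND 16 and reaches 13.2 in ND 19.

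Type VI collagen forms beaded filaments around cells, classically from Col6a1, Col6a2 and Col6a3. Col6a1 was at 9.41, 9.30, 8.25 and 8.70 in HFD and at 8.62, 7.48, 9.47 and 8.50 in ND. Col6a3 was at 8.88, 8.99, 7.68 and 8.03 in HFD and at 7.81, 6.79, 8.34 and 7.79 in ND. ND 16 was lowest in both, and HFD 26 stood under ND 19 in both, so the groups overlapped. The differences were 0.40 ± 0.41 (SE, limma adjusted p = 0.73) for Col6a1, 0.01 ± 0.53 (SE, limma adjusted p = 0.997) for Col6a2 and 0.71 ± 0.38 (SE, limma adjusted p = 0.54) for Col6a3. Without ND 16 they were 0.05, -0.40 and 0.41.

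Col6a1 followed Col6a3 with r = 0.94 (exact permutation p = 0.00263, adjusted 0.0115) and rho = 0.90 (exact permutation p = 0.00456, adjusted 0.0115), and r was 0.97 without ND 16 and ND 19. With Col6a2 it had r = 0.90 (exact permutation p = 0.00179, adjusted 0.00982) and rho = 0.83 (exact permutation p = 0.0154, adjusted 0.0338), and r was 0.81 without ND 16 and ND 19. The 3 chains thus moved together across libraries of both diets.

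Col6a6, a type VI chain that can take the place of Col6a3, was at 11.64, 11.77, 10.81 and 11.24 in HFD and at 14.28, 9.59, 12.30 and 12.74 in ND. The ND group held both the highest and the lowest library, and its difference was -0.86 ± 0.90 (SE, limma adjusted p = 0.74), or 0.00 as deposited. Col6a6 made up 41.7% of the summed values of the 27 other collagens on average and 77.5% of them in ND 15-17-18. With it, that class sum ranged over 2.83 log2 units and was lower in HFD by a difference of -0.28. Without it the range was 1.94 and the difference was 0.38, with HFD 23 highest at 13.4. That difference was 0.08 when HFD 23 was also left out and 0.17 when ND 16 was.

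FACIT collagens decorate the surface of fibrils. Col14a1 (chromosome 15, 55307644 to 55520803), which binds type I fibrils and decorin, was at 7.40, 7.16, 6.62 and 6.80 in HFD and at 5.60, 4.54, 6.88 and 5.61 in ND. The HFD libraries lay above 3 of the 4 ND libraries, and ND 19 lay among them. The means were 6.995 ± 0.35 and 5.66 ± 0.95 (SD), and the difference of 1.34 ± 0.47 (SE, n = 4 each) had a limma unadjusted p of 0.0172 and an adjusted p of 0.36. It was 2.16 as deposited, and leaving out single libraries gave 0.96 (without ND 16) to 1.75 (without ND 19).

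Col12a1, a FACIT of tendons and other tissues under load, was at 8.49, 7.93, 8.73 and 7.46 in HFD and at 6.63, 6.86, 8.50 and 7.19 in ND. ND 19 again stood among the HFD libraries, and the difference was 0.86 ± 0.43 (SE, limma adjusted p = 0.51). In the smooth muscle, pericyte and endothelial marker sums, too, ND 19 was the highest of the ND libraries, at 11.2, 9.55 and 11.8. In the fibroblast sum it was not, at 11.55 beside 11.77 in ND 15-17-18, and that sum differed by 0.03 between the diets. Fbln1 was the largest fibroblast marker in every library and so weighs most in that sum. It was at 11.49 in ND 15-17-18 and 10.58 in ND 19, with a difference of -0.18. Of the 9 smooth muscle markers all had a difference above 0, and of the 12 fibroblast markers 10 did, where 59.9% of all rows did. The part of these cells in the Col14a1 and Col12a1 values was not tested. Col20a1, another FACIT, was at 8.41, 8.26, 7.93 and 8.04 in HFD and at 8.86, 8.61, 8.05 and 8.60 in ND, with ND 19 again among the HFD libraries (-0.37 ± 0.20 SE, limma adjusted p = 0.54, and 0.48 as deposited).

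Col15a1, a collagen of vessel and muscle basement membranes whose tail is cleaved off as restin, was at 9.21, 9.61, 8.58 and 8.86 in HFD and at 8.61, 7.85, 9.71 and 8.66 in ND. ND 19 was highest and ND 16 lowest (0.36 ± 0.37 SE, limma adjusted p = 0.73), and without ND 16 the difference was 0.07.

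The 4 transmembrane collagens all had a difference above 0, with a median of 0.77. So did 6 of 7 beaded filament collagens, 5 of 9 FACIT collagens and 1 of 3 network collagens. Among all rows 59.9% did, with a median of 0.12. HFD 23 was the highest library in Col13a1, Col23a1 and Col25a1. Without it the transmembrane median was 0.46 and 3 of 7 beaded filament collagens were above 0, and without ND 20 these were 0.46 and 3 as well. The largest differences belonged to genes that were high or low in single libraries and are named here after their values were seen. Col23a1 was at 7.24, 10.10, 5.68 and 6.78 in HFD and at 7.39, 5.53, 6.45 and 4.12 in ND, a difference of 1.58 ± 1.01 (SE, limma adjusted p = 0.60). Col19a1 was at 5.82, 0.95, 4.32 and 5.33 in HFD and at 8.29, 4.602, 7.10 and 4.21 in ND, a difference of -1.95 ± 1.24 (SE, limma adjusted p = 0.60).

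The libraries with the most extreme levels came from both diets. ND 16 was the lowest of the 8 in 24 of 55 genes, among them 7 of 11 fibrillar and 4 of 6 type IV genes but 2 of 11 laminin chains. ND 20 was lowest in 12 and HFD 26 in 10. HFD 23 was the highest in 18 genes, ND 19 in 14 and ND 15-17-18 in 13. HFD 27 was neither the highest nor the lowest in any.

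**Figure D4:**
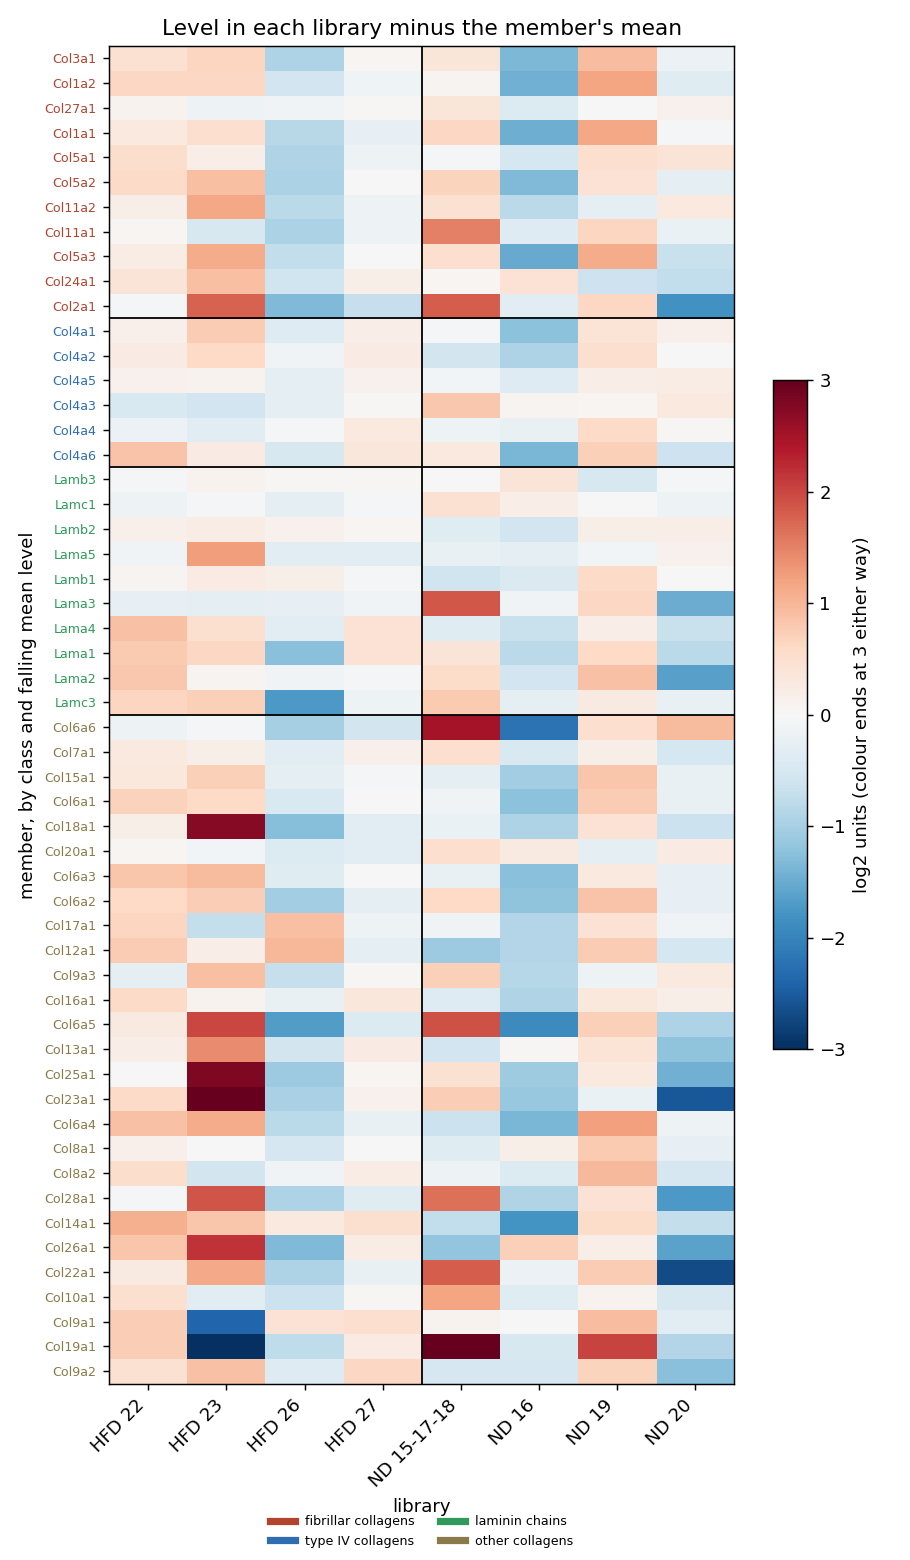
Level of each gene in each library minus the gene's mean over the 8 libraries, in log2 units, for 54 of the 55 genes grouped by class and 8 libraries. ND 16 is the lowest library in 24 genes. The laminin chains Lamb3, Lamc1 and Lamb2 change less than most genes shown, and tested rows with a mean level of 8 to 12 had a median range of 0.76.

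Ratios between chains inside a library do not move with its scaling, and 11 were compared between the diets by exact two-sided permutation over the 70 divisions of the libraries, for which the smallest possible p is 0.0286. The log2 ratio of Col1a1 to Col1a2 was -1.06, -0.87, -0.99 and -0.85 in HFD and -0.22, -0.74, -0.75 and -0.40 in ND. Every HFD library was below every ND library, with means of -0.94 ± 0.10 and -0.53 ± 0.26 (SD, n = 4 each). The difference of -0.42 reached the smallest possible exact permutation p, 0.0286, which adjusted over the 11 ratios is 0.16. Without ND 15-17-18 it was -0.31. Per kb, Col1a1 was below Col1a2 in 8 of 8 libraries.

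The ratio of Col6a1 to Col6a3 also separated the diets, at 0.53, 0.32, 0.57 and 0.66 in HFD and 0.81, 0.69, 1.13 and 0.71 in ND. HFD 27 and ND 16 were only just apart. The means were 0.52 ± 0.15 and 0.83 ± 0.20 (SD, n = 4 each), and the difference of -0.31 had an exact permutation p of 0.0286 and an adjusted value of 0.16. The other 9 ratios overlapped between the diets. Neither separated ratio passed the adjustment. With so few of the 11 ratios at the smallest possible p, an adjusted value under 0.05 could not be reached.

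**Figure D5:**
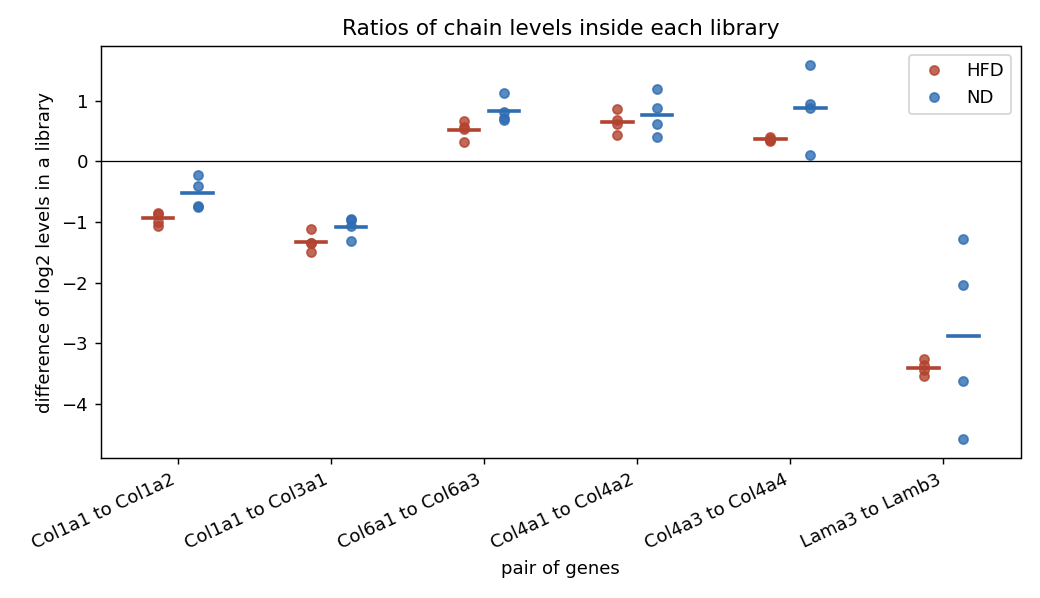
Log2 ratio of the levels of chain pairs in each library (y axis), for 6 of the 11 pairs compared, with 1 point per library and a bar at the mean of each diet. The Col1a1 to Col1a2 and Col6a1 to Col6a3 ratios do not overlap between HFD and ND, and the Lama3 to Lamb3 ratio runs from -4.59 to -1.27 within ND.

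Other genes of the matrix pathway were read from lists, and none of them passed the test. Of 30 genes of collagen synthesis and crosslinking, 24 had a difference above 0, with a median of 0.52 beside 0.12 for all rows. At an unadjusted p under 0.05, 6 were higher and 0 lower, where all rows gave 6.43% and 4.09%, and 4 were separated upward, where all rows gave 4.72%. Among all rows 59.9% had a difference above 0. Without HFD 23 the median of the list was 0.29, and 24 genes were above 0. Colgalt1, which attaches galactose to collagen hydroxylysines, was at 10.72, 10.84, 10.81 and 10.71 in HFD and at 9.89, 10.24, 10.42 and 10.36 in ND. All HFD libraries lay above all ND libraries, with a difference of 0.54 ± 0.13 (SE, limma adjusted p = 0.23).

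Plod1, a lysyl hydroxylase of collagen, was at 9.48, 9.53, 9.12 and 9.33 in HFD and at 8.61, 8.88, 8.87 and 8.996 in ND (0.53 ± 0.14 SE, limma adjusted p = 0.26). P3h4, a partner of the collagen hydroxylases in the endoplasmic reticulum, was at 10.44, 10.24, 10.58 and 10.17 in HFD and at 9.51, 9.64, 9.98 and 10.13 in ND (0.54 ± 0.16 SE, limma adjusted p = 0.30). Both were separated between the diets, P3h4 only narrowly. Both proteins take part in the modification of collagen chains.

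Of 14 other basement membrane components 7 had a difference above 0, where 59.9% of all rows did. Their median was -0.06 beside 0.12 for all rows. At a limma unadjusted p under 0.05, 1 was higher and 1 lower, where all rows gave 6.43% and 4.09%. Smoc2, a calcium-binding matrix protein of the basement membrane, was at 7.64, 8.70, 7.65 and 8.09 in HFD and at 5.28, 6.37, 7.25 and 6.90 in ND. Its groups were separated, with a difference of 1.57 ± 0.43 (SE, limma adjusted p = 0.27). Hspg2, which encodes perlecan, had -0.51 ± 0.20 (SE, limma adjusted p = 0.43) and 0.35 as deposited. Npnt, the nephronectin gene, had -0.25 ± 0.12 (SE, limma adjusted p = 0.49) and 0.60 as deposited.

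Of 16 receptors for collagens and laminins 8 had a difference above 0, where 59.9% of all rows did. Their median was 0.04 beside 0.12 for all rows. At a limma unadjusted p under 0.05, 1 was lower, where all rows gave 4.09%. That gene was Itgb4, the beta subunit of the hemidesmosome integrin that binds laminins of epithelia. It was at 12.94, 12.93, 12.75 and 12.82 in HFD and at 13.57, 13.02, 12.94 and 13.32 in ND, with HFD 22 and ND 19 nearly equal. The difference was -0.36 ± 0.14 (SE, limma adjusted p = 0.42), or 0.50 as deposited. Itga3, which pairs with the beta 1 subunit, had -0.30 ± 0.16 (SE, limma adjusted p = 0.53) and 0.56 as deposited, and the laminin receptor subunit Itga7 had -0.56 ± 0.26 (SE, limma adjusted p = 0.48) and 0.29 as deposited.

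Of 16 tested genes of collagen turnover 14 had a difference above 0, where 59.9% of all rows did. Their median was 0.41 beside 0.12 for all rows (0.13 and 11 genes above 0 without ND 20). At a limma unadjusted p under 0.05, 1 was higher, where all rows gave 6.43%. Timp1, an inhibitor of matrix metalloproteinases, was at 3.05, 3.97, 2.76 and 2.57 in HFD and at 0, 2.57, 2.11 and 0 in ND. It is listed at 0 in ND 15-17-18 and ND 20 and was low throughout (limma adjusted p = 0.46). Mmp2, a gelatinase, had 0.72 ± 0.43 (SE, limma adjusted p = 0.57) and Timp3, a matrix-bound inhibitor, 0.59 ± 0.39 (SE, limma adjusted p = 0.61).

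All 7 proteoglycans that bind collagen fibrils had a difference above 0, where 59.9% of all rows did, with a median of 1.03 beside 0.12 for all rows. At a limma unadjusted p under 0.05, 1 was higher, where all rows gave 6.43%. Without HFD 23 all 7 were above 0 with a median of 0.75. Dcn, which encodes decorin, was at 8.12, 8.07, 7.76 and 7.54 in HFD and at 6.48, 7.19, 8.03 and 6.53 in ND. ND 19 lay among the HFD libraries, as it did for Col14a1, and the difference was 0.82 ± 0.34 (SE, limma adjusted p = 0.45). Prelp had 1.03 ± 0.48 (SE, limma adjusted p = 0.49) with HFD 23 highest, and 0.59 without that library. Fmod, the fibromodulin gene, was at 4.14, 5.53, 2.67 and 3.36 in HFD and at 0, 2.91, 3.46 and 0 in ND. ND 16 and ND 19 lay above HFD 26, so the groups overlapped. The difference was 2.34 ± 1.07 (SE, limma adjusted p = 0.48), and Fmod was low throughout. Dcn is also 1 of the fibroblast markers, so it appears in both lists.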

How the data were processed

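Each of the 8 libraries (total RNA after removal of ribosomal RNA, Ion Total RNA-Seq kit, per the labels' protocols) has 1 deposited column of 38920 values. These deposited values were treated as log2 values, since the antilogs of each library sum to 36.9 M, and a 0 was kept as 0 on the linear scale. The submitters' processing notes name mm10 and bedtools 2.17.0 without a role. The aligner, annotation, depth and way of normalizing are not given here by any label or header. The values give no counts, so no counting interval is given, and low values are the least precise.

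Of the row identifiers 32891 matched RefSeq GRCm38.p6. Libraries were divided by their median ratio to the row means over 11115 rows above 30 in all 8. A row was tested if 4 or more libraries reached a linear value of 1, which left 27401 rows including all 55 members. The test was limma 3.58.1 in R 4.3.3, with its trend and robust options, on log2(value + 1) with the diet as its only term, a Benjamini-Hochberg adjustment and a threshold of 0.05. The code was tested on simulated data. Changes of low genes come out too small on this scale. Exon lengths came from GENCODE. The members and lists were chosen with earlier results of these data known. Members named are the 4 most abundant of each class, the 4 smallest p in each direction and the chains of known assemblies, and at most 3 genes with the smallest p in each other list. The values of 1 member, kept in sums and counts, are not reported here. RefSeq places another gene over 29 members, and the sources used here do not say whether strand was used. No number is shared between the diets, so nothing was paired. Alternatives covered scaling, pseudocount, filter, fit options, the definition of the classes and left-out libraries; for lists of genes, Prelp and the sum without Col6a6, leaving out libraries was chosen after seeing the data.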

Additional observations from a re-analysis of the deposited data

Results flagged for a closer look

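Of 110 groups of 4 libraries examined, 4 held a library that stood apart from the other 3 by more than the spread among them would usually give; chance gives about 1 in 20. Of these 4 values, 2 belong to HFD 23. There Lama5 was at 11.79 with the other HFD libraries at 10.19 to 10.44. The laminin sum of HFD 23 was 14.05 with the others at 13.57 to 13.65. In HFD 26, Col4a5 was at 9.07 with the others at 9.46 to 9.49, and the forestomach squamous markers summed to 12.82 with the others at 11.65 to 11.71. No cause was tested.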

How the results depend on the processing

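No member was called in the reported fit or any of its 16 alternatives, and the smallest adjusted p of a named member was 0.17 (limma, Col14a1 without ND 19); the stricter filter tested 46 of the 55. Over all rows, 16 were called on the deposited scale, 0 without ND 15-17-18 and HFD 23 (2294 at an unadjusted p under 0.05), and 0 to 4 when single libraries were left out. Deposited values gave class medians of 0.97 (fibrillar), 1.06 (type IV), 1.08 (laminin), 1.17 (other collagens) and 1.08 (type IV with laminin). The type IV median ran from -0.040 to 0.35 over left-out libraries. Of 26 named members, 11 kept their sign in every setting. On the deposited scale, signs turned for Col27a1 (0.80), Col1a1 (0.72), Col4a3 (0.23), Lamc1 (0.60), Col6a6 (0.00058), Col20a1 (0.48), Col11a1 (0.076) and Lama3 (0.41), where the scale itself shifts all rows by its median of 0.90. They turned with quantile normalization for Col4a5 (-0.031) and Col6a2 (-0.11). Without ND 15-17-18 and HFD 23 they turned for Col27a1 (0.076), Col4a5 (-0.053), Col6a2 (-0.057), Lama3 (0.10) and Lama5 (-0.19). Left-out single libraries gave -0.33 to 0.44 for Col3a1, -0.17 to 0.71 for Col1a2, -0.20 to 0.027 for Col27a1, -0.65 to 0.22 for Col1a1, -0.10 to 0.13 for Col4a5, -0.082 to 0.20 for Lamb3, -0.0041 to 0.31 for Col7a1, -0.40 to 0.36 for Col6a2, -1.03 to 0.069 for Lama3 and -0.13 to 0.40 for Lama5. The cause was not tested. Alternatives for the Col1a1 to Col1a2 and Col6a1 to Col6a3 ratios were chosen after seeing the data and kept their direction. No paired analysis was possible because the diets share no replicate number. The deposited values give no depth, which limits what can be said of low genes.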
